A study of Mus musculus with 17 samples.

Results

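The 10 genes described here mark T cells and natural killer (NK) cells and carry out or direct their killing of other cells. They are the T cell surface genes Cd3e, Cd4 and Cd8a, the granule genes Gzma, Gzmb, Prf1 and Nkg7, the NK receptor genes Klrb1c and Ncr1, and the cytokine gene Ifng. They were taken by gene symbol from a table of 45777 genes, and all 10 were among the 22052 genes that passed the filter on low counts. The lungs came from wild-type male C57BL/6 mice that were 6 weeks old on arrival and had a week to acclimatise. A single dose of 65 or 75 Gy was aimed at the left lung with an image-guided irradiator for small animals, and left lung tissue was taken 2 or 6 weeks later. Non-irradiated lungs of the same weeks were the controls. The paper states that the RNA came from the lesions of irradiated tissue and does not name the part of control lungs used. Irradiation and the site sampled therefore cannot be told apart here. At 2 weeks, the inflammation stage, there were 3 control, 3 65 Gy and 3 75 Gy libraries. At 6 weeks, the fibrosis stage, there were 3 control, 2 65 Gy and 3 75 Gy libraries. The paper lists 3 replicates of 65 Gy at 6 weeks and reports fewer reads and the lowest mapping ratio for replicate 2. The data used here hold 2 libraries of that group, and the labels do not say which replicate is absent. The labels do not say that each library was a separate mouse, so p-values measure the spread between libraries.

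T cells recognise antigen through a receptor whose signalling chains include CD3 epsilon, encoded by Cd3e. CD4 and CD8 alpha are coreceptors that divide helper T cells from cytotoxic T cells, although in mice some dendritic cells also carry CD4 or CD8 alpha. Cytotoxic T cells and NK cells kill by releasing granules, in which perforin (Prf1) makes holes in the target membrane and granzymes (Gzma, Gzmb) are the proteases that enter. NK cells in C57BL/6 mice are recognised by NK1.1, encoded by Klrb1c, and by the activating receptor NKp46, encoded by Ncr1. Interferon gamma, encoded by Ifng, is their main signal to macrophages and to tissue cells.

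The members lie on 6 chromosomes of GRCm38.p6, the build named in the labels. Their positions are those of RefSeq, and overlapping genes are those of the GENCODE M21 annotation. Cd3e lies at chr9:44998735-45009663 on the minus strand, where an antisense gene and an unclassified transcript overlap it. Cd4 (chr6:124864693-124888247, minus strand), Cd8a (chr6:71373427-71379171, plus strand) and Klrb1c (chr6:128778485-128788641, minus strand) share chromosome 6. Klrb1c is overlapped on its own strand by another protein-coding gene model, Gm44511, so reads in the overlap could be given to either. Prf1 (chr10:61297751-61304684) and Ifng (chr10:118441046-118445894) are both on the plus strand of chromosome 10, and an unclassified transcript overlaps Ifng. Nkg7 (chr7:43437138-43438246) and Ncr1 (chr7:4337715-4345184) are both on the plus strand of chromosome 7. Gzma lies at chr13:113093824-113100981 and Gzmb at chr14:56258836-56262334, each on the minus strand. The libraries were made with a stranded kit, but whether strand was used in counting is not given in the sources used here.

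The sequence shown for these genes is their promoter, because 6 of the members share a short motif there. Of the motifs searched, this one was picked for display because it had the most matches, so its count is a description and no test. RefSeq promoter windows of 300 bases, from 250 bases before a gene's start to 50 bases after it on GRCm38.p6, were matched to 9 of the 10 members, with 2 overlapping windows for Ncr1. No window was matched to Cd4. The motif TGTGGT, bound by RUNX factors, or its reverse complement ACCACA was found in the windows of Gzma, Gzmb, Prf1, Nkg7, Klrb1c and Ncr1. It was not found in those of Cd3e, Cd8a and Ifng. Of all 32851 windows searched on both strands, 16.8% held it. The 46-base stretches around each match are given 5′ to 3′ along the strand of the gene, with the matched bases in capitals.
Prf1, chr10:61297686-61297731, plus strand: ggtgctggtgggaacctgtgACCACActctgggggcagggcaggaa
Gzma, chr13:113101006-113101051, minus strand: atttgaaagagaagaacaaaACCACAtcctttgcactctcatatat
Gzmb, chr14:56262402-56262447, minus strand: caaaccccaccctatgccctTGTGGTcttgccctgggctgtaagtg
Gzmb, chr14:56262343-56262388, minus strand: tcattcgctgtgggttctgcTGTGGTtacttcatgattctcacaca
Nkg7, chr7:43437035-43437080, plus strand: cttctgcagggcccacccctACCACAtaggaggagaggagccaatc
Klrb1c, chr6:128788705-128788750, minus strand: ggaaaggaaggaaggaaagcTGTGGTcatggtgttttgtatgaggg
Ncr1, chr7:4337519-4337564, plus strand: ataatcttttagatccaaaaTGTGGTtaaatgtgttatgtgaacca
Ncr1, chr7:4337654-4337699, plus strand: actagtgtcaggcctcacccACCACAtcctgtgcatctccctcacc

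The RefSeq span of Prf1 begins 85 bases before the start that its promoter window uses. The last 85 of its 250 bases below therefore lie inside that span. For the other 5 genes the span and the window use the same start, apart from the second window of Ncr1. Match positions are counted from the starts that the windows use. In Prf1 the match began 130 bases before the start, in Gzma 50, in Nkg7 83 and in Klrb1c 89 bases before it. Gzmb held a pair of matches, 93 and 34 bases before its start, and Ncr1 held matches 176 and 41 bases before the start of its first window. Prf1 and Ncr1 are also shown over the 250 bases before these starts, with the same bases in capitals. They had the smallest adjusted p among the members with a window at 75 Gy and 6 weeks.
Prf1, chr10:61297586-61297835, plus strand: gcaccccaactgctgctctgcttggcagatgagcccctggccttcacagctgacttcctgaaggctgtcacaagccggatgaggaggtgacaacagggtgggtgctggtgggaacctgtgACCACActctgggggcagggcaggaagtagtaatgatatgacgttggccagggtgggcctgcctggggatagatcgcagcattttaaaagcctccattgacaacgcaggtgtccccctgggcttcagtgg
Ncr1, chr7:4337465-4337714, plus strand: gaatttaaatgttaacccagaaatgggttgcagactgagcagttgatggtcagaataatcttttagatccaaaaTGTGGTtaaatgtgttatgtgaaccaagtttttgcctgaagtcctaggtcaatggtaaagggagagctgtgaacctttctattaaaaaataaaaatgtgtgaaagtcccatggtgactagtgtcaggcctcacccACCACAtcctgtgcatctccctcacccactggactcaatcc

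The other motifs searched were not shared in this way. GGTGTG, a site of T-box factors, was found in Nkg7 alone (19% of all windows held it or its reverse complement CACACC). The NFAT core, GGAAAA (reverse complement TTTTCC, 23.4% of all windows), was found in Gzma alone. The ETS core, CCGGAA (reverse complement TTCCGG, 14.9% of all windows), was found in none of the 10 windows. A match is a stretch of letters, and no binding was measured here.

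Total counts per library ran from 46764569 to 66797879, with a median of 57608149. Counts were scaled by TMM (trimmed mean of M values) and are given as CPM, counts scaled to a common library size of 1e6. Changes are log2 fold changes from edgeR's quasi-likelihood test over all 17 libraries, and a gene is called where its Benjamini-Hochberg adjusted p is at most 0.05 and its change is at least 1 on the log2 scale. The labels of irradiated and control libraries were checked with 7 target genes of p53, a factor that radiation activates. Their summed level was 876 to 1666 CPM in the 11 irradiated libraries and 423 to 525 CPM in the 6 control libraries. Dose and week labels were not checked in this way. At 2 weeks the sums at 65 Gy (1235 to 1509 CPM) and at 75 Gy (1298 to 1666 CPM) overlapped. At 75 Gy and 2 weeks the library numbered 3134 stood apart, with a summed level of 12 genes of interferon-gamma signalling of 2348 CPM, where the remaining 75 Gy libraries had 1224 and 1329 CPM. For 75 Gy against control at 2 weeks, members and lists of related genes whose calls or sign changed without it are given both ways.

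In the 6 control libraries the members differed widely in level. Per kilobase of exon, Gzma was the most abundant at 28.5 ± 6.82 CPM (SD, n = 6), followed by Nkg7 at 10.5 ± 1.98 CPM per kilobase. Gzmb (5.12 ± 0.888), Ncr1 (4.81 ± 1.30) and Prf1 (4.75 ± 0.742 CPM per kilobase) followed, and these 3 did not differ beyond their SDs. Klrb1c had 3.44 ± 1.06, Cd8a 2.61 ± 0.796, Cd4 2.26 ± 0.389 and Cd3e 1.72 ± 0.324 CPM per kilobase, with Cd8a within the SD of Klrb1c and Cd4 within that of Cd8a. Cd3e lay below Cd4 by more than either SD, although their ranges overlapped. Ifng was lowest at 0.268 ± 0.115 CPM per kilobase. Its raw counts were 8 to 92 in a library, against 173 to 2044 for the other members, so its values carry the largest counting error.

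Cd4 was the member called higher at 6 weeks, at both doses. In the 2-week controls it had 8.32, 9.36 and 10.91 CPM, against 18.2, 12.7 and 11.01 CPM at 65 Gy and 10.96, 18.5 and 23.3 CPM at 75 Gy. The irradiated libraries lay above every control of that week, the lowest by a narrow margin. In the 6-week controls it had 10.98, 7.35 and 7.77 CPM, against 19.5 and 16.3 CPM at 65 Gy and 16.3, 22.1 and 20.3 CPM at 75 Gy. All 5 irradiated libraries lay well above all 3 controls. At 6 weeks Cd4 rose by 1.17 on the log2 scale at 75 Gy (SE 0.253, adjusted p = 0.00262) and by 1.04 at 65 Gy (SE 0.275, adjusted p = 0.0211). The 65 Gy call was lost without control library 3136 or 3137 and without either 65 Gy library, with an adjusted p of 0.15 without library 3138. At 2 weeks the difference was 0.88 at 75 Gy (SE 0.252, adjusted p = 0.0202), under the fold limit, and 0.55 at 65 Gy (SE 0.251, adjusted p = 0.18). Without library 3134 the 2-week difference at 75 Gy was 0.63 (adjusted p = 0.108). In bulk tissue, more cells of a type and more RNA per cell cannot be told apart, here or for any gene described next.

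Some dendritic cells can carry CD4. Markers of conventional dendritic cells and of macrophages and monocytes were also higher in the irradiated libraries at 6 weeks. The 9 macrophage and monocyte markers summed to 4378 to 4843 CPM in the 6-week controls, 10954 to 12358 CPM at 65 Gy and 13376 to 14527 CPM at 75 Gy. The 9 markers of conventional dendritic cells summed to 125 to 134, 179 to 196 and 190 to 225 CPM in the same groups. Of these 9, 7 were called higher at 75 Gy (7.28% of all genes) and 6 at 65 Gy (4.34%). At 2 weeks the markers and Cd4 did not go together in every library. Control library 3126 had 10532 CPM of macrophage and monocyte markers and the lowest Cd4 of that week, 8.32 CPM. Library 3134 had 13575 CPM of these markers and the highest Cd4, 23.3 CPM. Library 3132, also at 75 Gy, had 13181 CPM of them and 10.96 CPM of Cd4. The part of these cells in the rise of Cd4 was not tested.

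Cd3e, which all T cells express, was higher in irradiated lungs with a smaller difference than Cd4. Its level was 6.62, 6.68 and 7.46 CPM in the 2-week controls, 13.6, 8.28 and 7.91 CPM at 65 Gy and 8.63, 9.65 and 18.1 CPM at 75 Gy. Its level was 9.47, 5.85 and 6.09 CPM in the 6-week controls, 12.1 and 11.96 CPM at 65 Gy and 11.9, 10.6 and 9.60 CPM at 75 Gy. No irradiated library fell within the range of its controls at either time, although the highest 6-week control nearly reached the lowest 75 Gy library. The difference at 75 Gy was 0.81 at 2 weeks (SE 0.270, adjusted p = 0.0426) and 0.58 at 6 weeks (SE 0.269, adjusted p = 0.103). Without library 3134 the 2-week value was 0.40 (adjusted p = 0.269). At 65 Gy it was 0.52 (adjusted p = 0.246) at 2 weeks and 0.75 (adjusted p = 0.102) at 6 weeks.

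Cd8a did not follow Cd4. It had 7.98, 7.22 and 9.55 CPM in the 2-week controls, 12.6, 8.48 and 10.3 CPM at 65 Gy and 5.69, 7.80 and 25.3 CPM at 75 Gy. The 75 Gy group held both the lowest and the highest level of that week, the highest being library 3134. At 6 weeks the controls had 15.1, 7.76 and 9.43 CPM, the 65 Gy libraries 10.8 and 9.93 CPM and the 75 Gy libraries 8.22, 8.09 and 6.98 CPM, and the ranges overlapped. The log2 difference at 75 Gy was 0.64 at 2 weeks (95% interval -0.22 to 1.51, adjusted p = 0.28) and -0.29 without library 3134. At 6 weeks it was -0.47 (95% interval -1.33 to 0.39, adjusted p = 0.386). These intervals are wide enough to hold a change of 2-fold.

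**Figure D1:**
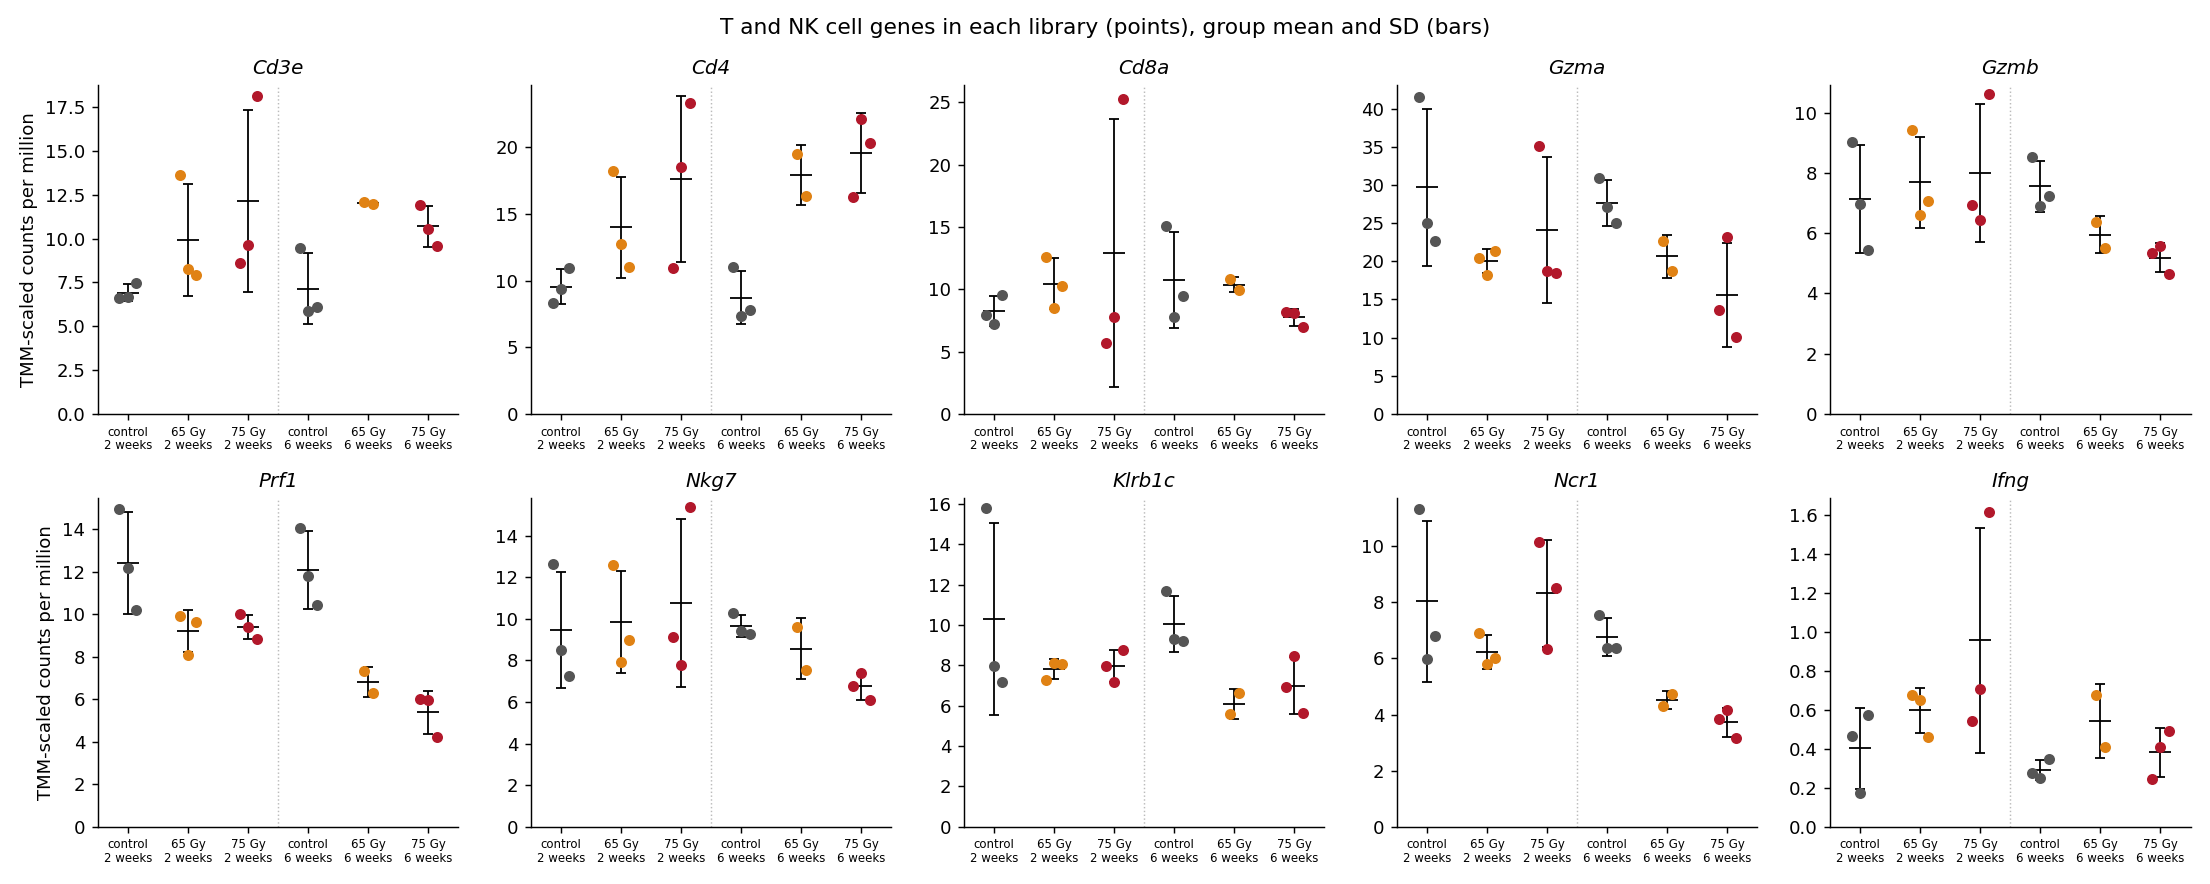
TMM-scaled CPM (linear axis) of the 10 genes in each of the 17 libraries, as points, with the group mean and SD as bars (n = 3, but n = 2 for 65 Gy at 6 weeks). Cd4 lies at 16.3 to 22.1 CPM in the irradiated libraries of week 6 against at most 10.98 CPM in the controls, Prf1 lies lower in the irradiated groups, and Cd8a reaches 25.3 CPM in a single 75 Gy library.

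Prf1, which encodes perforin, was the member called lower, at 75 Gy and 6 weeks. Its level was 14.96, 12.2 and 10.2 CPM in the 2-week controls, 9.93, 8.07 and 9.65 CPM at 65 Gy and 9.999, 9.40 and 8.85 CPM at 75 Gy. Its level was 14.1, 11.8 and 10.4 CPM in the 6-week controls, 7.32 and 6.32 CPM at 65 Gy and 6.00, 5.94 and 4.22 CPM at 75 Gy. All 11 irradiated libraries (4.22 to 9.999 CPM) lay below all 6 controls (10.2 to 14.96 CPM). Of all genes tested, 4.5% were lower and 6.07% higher in every irradiated library than in every control, and Prf1 was the single member among them. At 75 Gy and 6 weeks Prf1 fell by 1.17 on the log2 scale (SE 0.169, adjusted p = 0.000164). At 65 Gy it was -0.83 (SE 0.190, adjusted p = 0.0105), past the p limit and under the fold limit. At 2 weeks the differences were -0.40 at 75 Gy (adjusted p = 0.0971) and -0.43 at 65 Gy (adjusted p = 0.112).

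Gzma, the most abundant granzyme gene here, was also lower at 6 weeks. The 6-week controls had 30.9, 27.1 and 25.0 CPM, the 65 Gy libraries 22.7 and 18.7 CPM and the 75 Gy libraries 13.6, 23.1 and 10.1 CPM. Every irradiated library lay below every control. At 75 Gy the log2 difference was -0.83 (SE 0.301, adjusted p = 0.0435), and it depended on single libraries. It was -0.57 (adjusted p = 0.2) without library 3143, the lowest 75 Gy library, and -1.21 (adjusted p = 0.0109) without library 3142, the highest. At 65 Gy it was -0.42 (adjusted p = 0.444). At 2 weeks the controls had 41.5, 25.0 and 22.7 CPM, the 65 Gy libraries 20.4, 18.3 and 21.4 CPM and the 75 Gy libraries 35.1, 18.7 and 18.5 CPM, so that the 75 Gy range overlapped the control range.

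Gzmb, the granzyme that activates caspases in the target cell, showed differences of 0.16 at 75 Gy and 0.11 at 65 Gy at 2 weeks, on the log2 scale. Without library 3134 the difference at 75 Gy was -0.096. At 6 weeks the controls had 8.51, 6.90 and 7.24 CPM, the 65 Gy libraries 6.38 and 5.51 CPM and the 75 Gy libraries 5.33, 5.57 and 4.66 CPM. No irradiated library reached the control range, but the log2 difference of -0.54 at 75 Gy (SE 0.212) missed the limit with an adjusted p of 0.058. Nkg7 encodes a membrane protein of the granules. It had 10.3, 9.41 and 9.29 CPM in the 6-week controls and 6.79, 7.40 and 6.10 CPM at 75 Gy, a log2 difference of -0.51 (SE 0.250, adjusted p = 0.122). At 65 Gy and 6 weeks it had 9.60 and 7.53 CPM, which overlapped the controls, with a difference of -0.17 (SE 0.279, adjusted p = 0.731). At 2 weeks its difference at 75 Gy was 0.18 (adjusted p = 0.645), and -0.16 without library 3134.

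Ncr1, the NKp46 gene, was lower at 75 Gy and 6 weeks. The controls had 7.56, 6.36 and 6.37 CPM, the 65 Gy libraries 4.29 and 4.75 CPM and the 75 Gy libraries 3.84, 4.16 and 3.16 CPM. All 5 irradiated libraries lay below all controls. At 75 Gy the log2 difference was -0.86 (SE 0.220, adjusted p = 0.00725), past the p limit and under the fold limit, and at 65 Gy it was -0.58 (SE 0.247, adjusted p = 0.129). At 2 weeks the controls had 11.3, 6.00 and 6.79 CPM, the 65 Gy libraries 6.92, 5.79 and 6.00 CPM and the 75 Gy libraries 10.1, 6.34 and 8.51 CPM. These ranges overlapped, with a log2 difference of 0.05 at 75 Gy (95% interval -0.41 to 0.51) and of -0.37 at 65 Gy.

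Klrb1c, the NK1.1 gene, lay at 11.7, 9.29 and 9.18 CPM in the 6-week controls, 5.57 and 6.61 CPM at 65 Gy and 6.91, 8.46 and 5.62 CPM at 75 Gy. The irradiated libraries lay below the controls at both doses. The log2 difference was -0.52 at 75 Gy (SE 0.240, adjusted p = 0.102) and -0.72 at 65 Gy (SE 0.273, adjusted p = 0.0903), neither past the p limit. At 2 weeks a single control, library 3126, had 15.8 CPM against 7.17 to 8.74 CPM in the other 8 libraries of that week. With it the difference at 75 Gy was -0.37 (adjusted p = 0.289), and without it 0.08 (adjusted p = 0.765).

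Ifng was the sparsest member, and edgeR's quasi-likelihood test over all libraries called no change in it. It had 0.467, 0.171 and 0.572 CPM in the 2-week controls and 0.543, 0.709 and 1.62 CPM at 75 Gy, the highest again in library 3134. The log2 difference was 1.23 (SE 0.457, adjusted p = 0.0666), and 0.63 (adjusted p = 0.376) without that library. Without library 3132 it was 1.4998 (adjusted p = 0.0303), which is a call, and edgeR's exact test also called it (adjusted p = 0.0473). At 6 weeks the controls had 0.276, 0.250 and 0.349 CPM, the 65 Gy libraries 0.676 and 0.41 CPM and the 75 Gy libraries 0.246, 0.407 and 0.493 CPM. The differences were 0.89 at 65 Gy (95% interval -0.21 to 2.00) and 0.38 at 75 Gy (95% interval -0.65 to 1.41). Both 65 Gy libraries lay above the 3 controls, and both intervals hold 0.

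**Figure D2:**
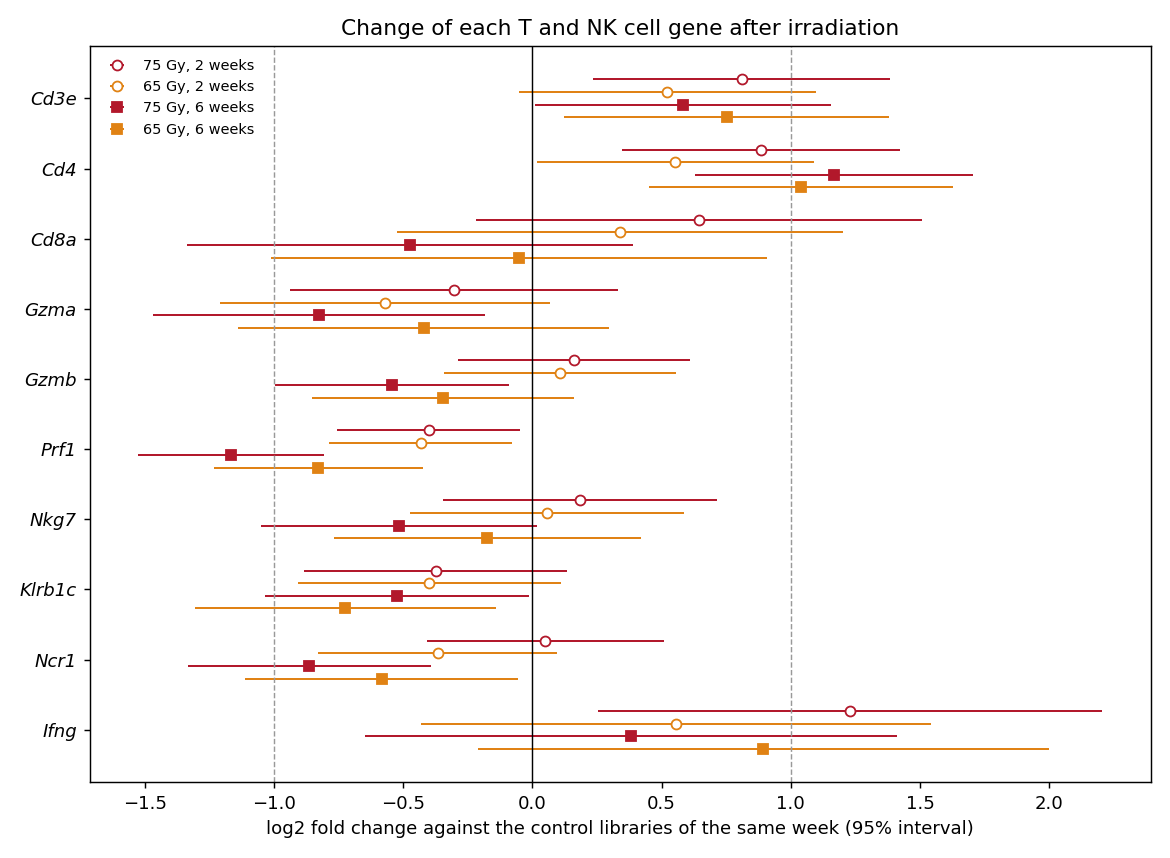
Log2 fold change (horizontal axis) of each gene against the controls of the same week, with its 95% interval, for 75 Gy (red) and 65 Gy (orange) at 2 weeks (open circles) and 6 weeks (filled squares). Dashed lines mark the fold limit of 1. At 6 weeks Cd4 lies at 1.17 and 1.04 while Prf1 lies at -1.17 and -0.83.

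Counted over the 10 members, the calls were few. At 75 Gy and 2 weeks edgeR called 0 of 10, where it called 5.67% of all genes tested higher and 2.07% lower. Unadjusted p was under 0.05 for 4 members, DESeq2 called 0 and edgeR's exact test called 1, Ifng. At 65 Gy and 2 weeks it called 0 of 10 (3.47% of all genes higher and 0.88% lower), with 2 members at an unadjusted p under 0.05 and none by DESeq2 or the exact test. At 75 Gy and 6 weeks Cd4 was called higher and Prf1 lower, where 7.28% of all genes were called higher and 3.13% lower. At 65 Gy and 6 weeks Cd4 alone was called (4.34% of all genes higher and 0.943% lower). By adjusted p alone, without the fold limit, 2 members passed at 75 Gy and 2 weeks (22.3% of all genes), 0 at 65 Gy and 2 weeks (11%), 4 at 75 Gy and 6 weeks (36%) and 2 at 65 Gy and 6 weeks (14.7%). These counts are near the shares of all genes, and are read here as results on single genes.

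The median log2 difference over the members at 75 Gy was 0.17 at 2 weeks and -0.52 at 6 weeks. The 2-week value rested on library 3134, without which it was -0.12, with 6 of the 10 members below 0, and it was 0.42 without control library 3126 and 0.011 without control library 3128. At 65 Gy it was 0.081 at 2 weeks, but -0.081 without control library 3128 and -0.11 without library 3129, and -0.26 at 6 weeks. Over all genes tested, the median at 75 Gy was 0.00084 and 0.040 in weeks 2 and 6. At 75 Gy and 6 weeks 2 members lay above all controls (29.4% of all genes did) and 6 lay below all controls (27.7% of all genes). At 65 Gy and 6 weeks 3 lay above (28.2%) and 5 below (28.1%). At 2 weeks the counts were 2 above (15.5%) and 1 below (14.8%) at 75 Gy, and 2 above (15.9%) and 2 below (13.5%) at 65 Gy. Cd3e and Cd4 were above in all 4 comparisons and Prf1 below in all 4. The doses share their controls, so these are not independent comparisons.

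In the direct test of the 75 Gy effect between the weeks, edgeR called 0 of 10 members, where it called 0.254% of all genes. The closest were Prf1, with a log2 difference between effects of -0.77 (SE 0.236, adjusted p = 0.168), and Ncr1, with -0.91 (SE 0.308, adjusted p = 0.195). Gzmb had -0.70 (SE 0.299, adjusted p = 0.27) and Cd8a -1.12 (SE 0.573, adjusted p = 0.348). Of the 10 members, 3 had an unadjusted p under 0.05 in edgeR's test, and DESeq2 called 0. For the 65 Gy effect 0 of 10 were called by edgeR or DESeq2, and 0 had an unadjusted p under 0.05 (0.0136% of all genes were called).

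No member was called between the doses. Between 75 and 65 Gy edgeR called 0 of 10 members at 2 weeks and 0 of 10 at 6 weeks, with 0 at an unadjusted p under 0.05, and 0% of all genes were called at either time. DESeq2 also called 0 members at both times. The log2 differences ran from 0.02 (Klrb1c) to 0.67 (Ifng) at 2 weeks and from -0.51 (Ifng) to 0.20 (Klrb1c) at 6 weeks. For Prf1 at 6 weeks the difference was -0.34, with a 95% interval of -0.74 to 0.06, which leaves room for a lower level at 75 Gy. For Cd4 it was 0.13, with an interval of -0.46 to 0.72. Between the 6-week and 2-week controls 0 of 10 members were called (0.576% of all genes were called), with log2 differences from -0.47 (Ifng) to 0.38 (Cd8a), 0 at an unadjusted p under 0.05 and 0 called by DESeq2.

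Ratios of counts within a library do not depend on scaling between libraries, and they are given as descriptions. Cd4 over Cd8a was 0.833 ± 0.1102 (SD, n = 3) in the 6-week controls, 1.72 ± 0.1108 (n = 2) at 65 Gy and 2.54 ± 0.497 (n = 3) at 75 Gy. These ranges did not overlap, with 2 or 3 libraries a group, and the ratio was not tested between the doses. Among single genes, 15.6% lay higher and 15.3% lower in every 75 Gy library than in every 65 Gy library at 6 weeks. At 2 weeks it was 1.16 ± 0.128 in controls and 1.74 ± 0.742 at 75 Gy, where library 3134 had 0.923. Ncr1 over Cd3e was 0.977 ± 0.157 in the 6-week controls, 0.376 ± 0.0296 at 65 Gy and 0.348 ± 0.0396 at 75 Gy. Perforin counts were also lower relative to granzyme B counts, with Prf1 over Gzmb at 1.60 ± 0.142 in the 6-week controls, 1.15 ± 0.00126 at 65 Gy and 1.03 ± 0.114 at 75 Gy. Prf1 over Nkg7 was 1.25 ± 0.122, 0.801 ± 0.0538 and 0.793 ± 0.0967 in the same groups. Gzma over Gzmb was 3.67 ± 0.243, 3.47 ± 0.113 and 2.95 ± 1.06 there, and its ranges overlapped. At 2 weeks Prf1 over Gzmb was 1.76 ± 0.108 in controls, 1.22 ± 0.157 at 65 Gy and 1.25 ± 0.358 at 75 Gy. Both irradiated ranges lay below the control range. Ncr1 over Cd3e was 1.17 ± 0.466, 0.656 ± 0.131 and 0.767 ± 0.365 in those 2-week groups, and the 75 Gy range overlapped the controls.

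**Figure D3:**
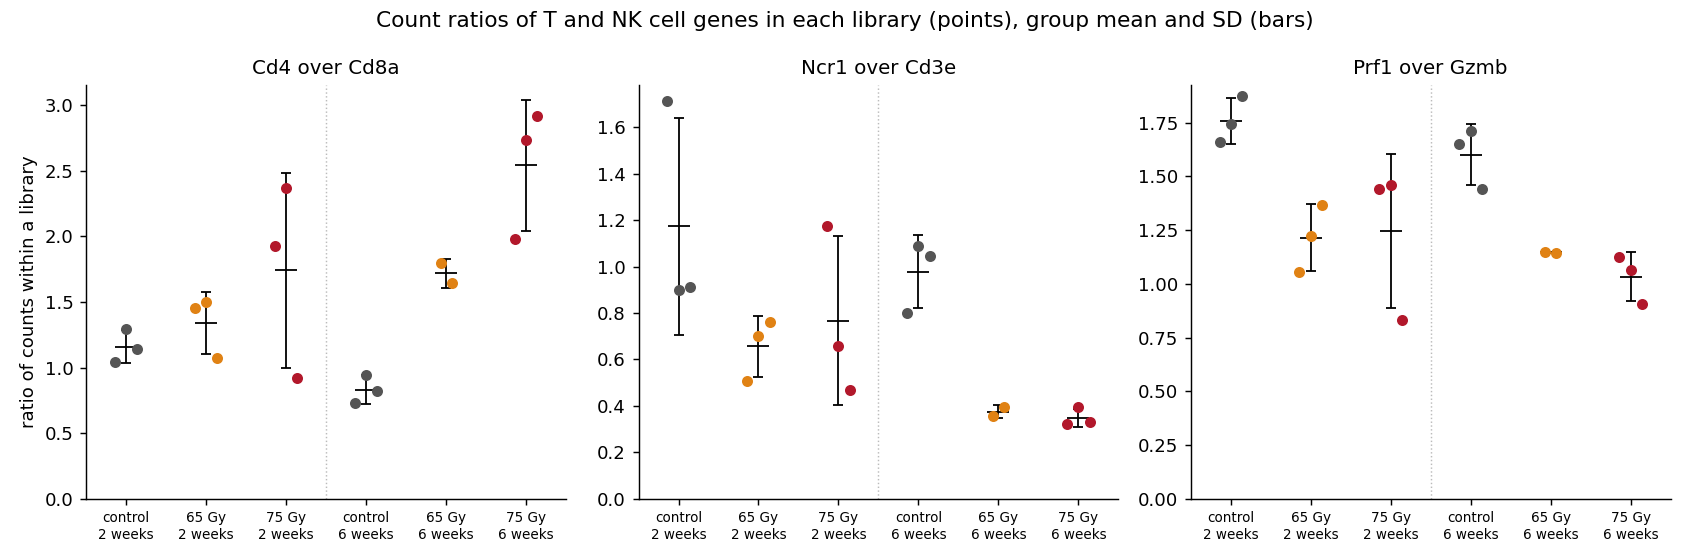
Ratios of counts within each library (linear axes), as points, with the group mean and SD as bars, for Cd4 over Cd8a, Ncr1 over Cd3e and Prf1 over Gzmb. At 6 weeks the Cd4 over Cd8a ratio is 0.833 in controls and 2.54 at 75 Gy on average, and the Ncr1 over Cd3e ratio is 0.977 and 0.348.

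Within groups the members varied in sets. After group means were taken out, Gzmb and Nkg7 correlated at r = 0.97 over the 17 libraries, Cd3e and Cd8a at 0.90, Klrb1c and Ncr1 at 0.81 and Cd3e and Cd4 at 0.79. These libraries share a scaling, and single libraries such as 3126 and 3134 carry much of the spread. Among 15797 genes that averaged 0 or more on the log2 CPM scale, the genes most like Cd3e over all 17 libraries were Thy1 (r = 0.94), Cd6 (0.94), Arhgap9 (0.93), Fermt3 (0.92) and Apol7b (0.92). Thy1 and Cd6 encode T cell surface proteins. Gzmb was most like Nkg7 (0.97), then Rhno1 (0.85), Nfatc2ip (0.85), Rttn (0.84) and Csk (0.82). Ncr1 was most like Lrrc14 (0.87), Treml4 (0.87), Ap1s2 (0.87), Gm33998 (0.86) and Klre1 (0.86), of which Klre1 encodes an NK receptor. Ifng was most like Taco1 (0.90), Nrros (0.89), F13a1 (0.89) and Nlrp1a (0.87).

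The wider pathway was read from 155 related genes in 8 lists, of which 147 were tested. At 75 Gy 37 were called higher (5.67% of all genes) and 2 lower (2.07%) at 2 weeks. At 6 weeks 35 were called higher (7.28%) and 5 lower (3.13%). At 65 Gy 14 were called higher (3.47% of all genes) and 0 lower (0.88%) at 2 weeks, and 21 higher (4.34%) and 1 lower (0.943%) at 6 weeks. The median log2 difference over the 147 was 0.45 at 75 Gy and 2 weeks and 0.38 at 6 weeks. The median of the members at 75 Gy and 6 weeks, -0.52, had the opposite sign.

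**Figure D4:**
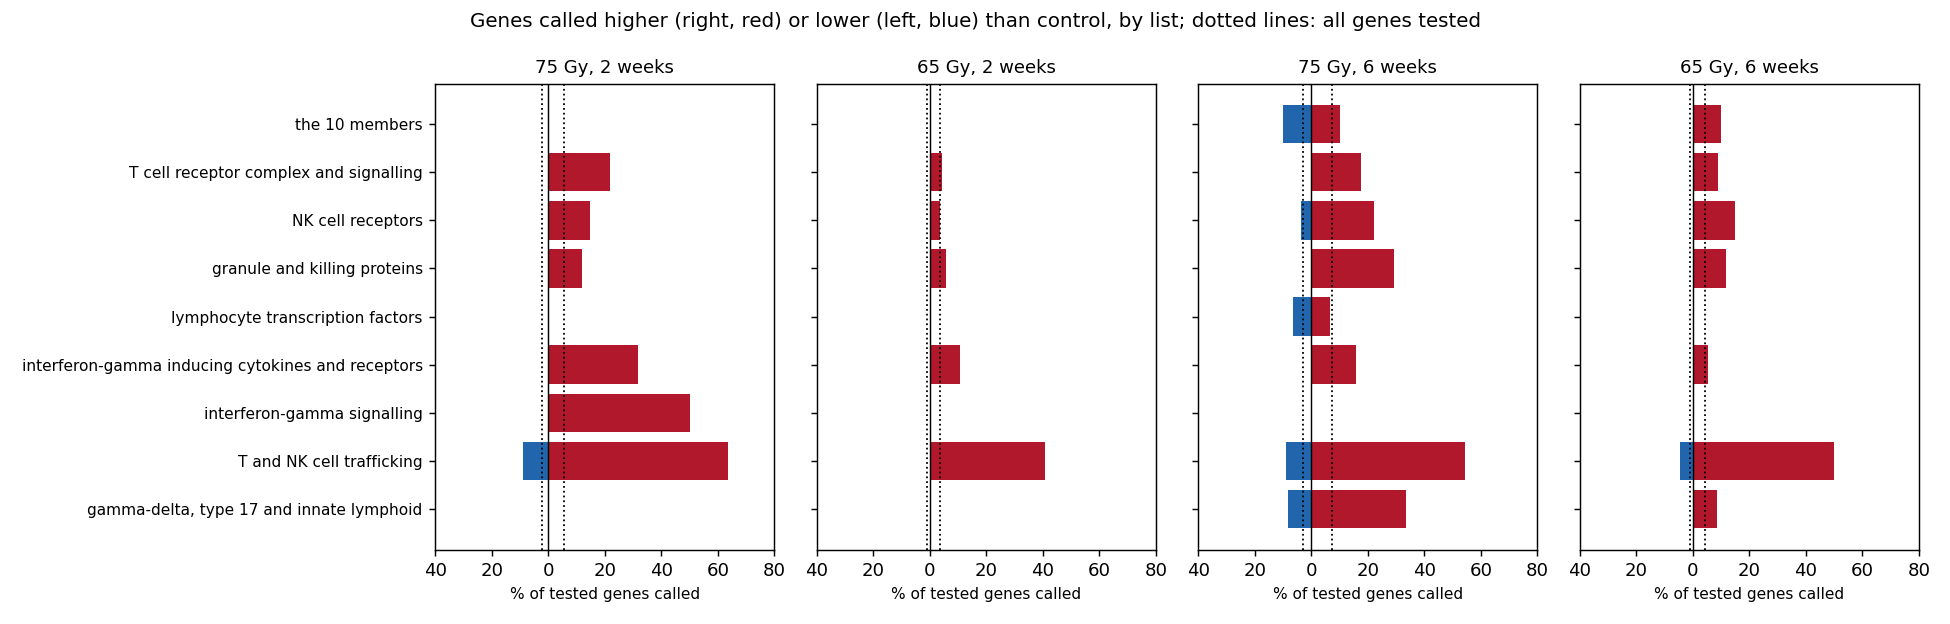
Percentage of the tested genes of each list called higher (red, to the right of 0) or lower (blue, to the left of 0) than control, for each dose and week. Dotted lines give the same percentages over all genes tested, 5.67% and 2.07% at 75 Gy and 2 weeks. The trafficking list has the most calls in every comparison but none of the lists is called lower in more than 2 genes.

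Some T cell receptor genes were called higher. Of 23 tested, 5 were called higher at 75 Gy and 2 weeks (5.67% of all genes) and 4 at 6 weeks (7.28%). At 65 Gy 1 was called higher at 2 weeks, near the 3.47% of all genes, and 2 at 6 weeks (4.34%). In these 4 comparisons 0 were called lower. In the order 75 Gy at 2 weeks, 65 Gy at 2 weeks, 75 Gy at 6 weeks and 65 Gy at 6 weeks, the counts moved as follows. Without library 3134 the first count was 2. The third was 1 without library 3136, 3137 or 3142 and 8 without library 3135, and the last was 0 without library 3136, 3137 or 3138. Icos, a costimulatory receptor of activated T cells, rose by 1.96 (SE 0.383, adjusted p = 0.00219) at 75 Gy and 2 weeks and by 1.91 (SE 0.3796, adjusted p = 0.00151) at 6 weeks. It had 3.51 to 3.81 CPM in the 2-week controls and 6.67 to 25.4 CPM at 75 Gy, and rose by 1.28 (adjusted p = 0.00735) without library 3134. Cd3g and Cd3d, which encode partner chains of CD3 epsilon, rose by 1.04 (adjusted p = 0.00294) and 1.02 (adjusted p = 0.0101) at 75 Gy and 6 weeks. Cd6 rose by 1.31 (adjusted p = 0.00378) and Lcp2, an adaptor of receptor signalling, by 1.19 (adjusted p = 0.00222) at 75 Gy and 2 weeks. Without library 3134 these were 0.94 for Cd6 and 0.80 for Lcp2, both under the fold limit.

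Among 27 NK receptor genes, 4 were called higher at 75 Gy and 2 weeks (5.67% of all genes). Without library 3134 the calls there were Fcgr3, Tyrobp and Klri1, and Klrg1 had 0.99 on the log2 scale, under the fold limit. At 75 Gy and 6 weeks 6 were called higher (7.28% of all genes) and 1 lower (3.13%). At 65 Gy the counts were 1 higher at 2 weeks, near the 3.47% of all genes, and 4 higher at 6 weeks (4.34%). The median of this list was 0.18 at 75 Gy and 6 weeks, on the log2 scale. Some genes that moved are not particular to NK cells. Fcgr3, an activating Fc receptor, and Tyrobp, an adaptor, are also strongly expressed by macrophages, and they rose at 75 Gy and 6 weeks by 2.28 (adjusted p = 5.25e-05) and 1.65 (adjusted p = 9.12e-05). Klri1, a lectin-like NK receptor, rose by 2.38 (SE 0.257, adjusted p = 2.01e-05), from 0.874 to 0.957 CPM in controls to 3.66 to 5.36 CPM. Sh2d1b1, an adaptor known as EAT-2, rose by 1.42 (SE 0.160, adjusted p = 2.66e-05). S1pr5, a receptor that NK cells use to leave bone marrow and lymph nodes, was the gene called lower, at -1.34 (SE 0.355, adjusted p = 0.00905), with 3.40 to 4.76 CPM in controls and 0.913 to 2.36 CPM at 75 Gy.

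Granzyme C stood out among the granule genes. Gzmc had 0 counts in all 6 control libraries and 18 to 945 counts in the 11 irradiated ones. Its levels were 1.68, 0.381 and 0.321 CPM at 65 Gy and 0.525, 1.32 and 16.6 CPM at 75 Gy at 2 weeks, the last in library 3134. At 6 weeks they were 0.989 and 1.18 CPM at 65 Gy and 0.344, 1.57 and 0.876 CPM at 75 Gy. Against a floor of 3 counts in each control library, the mean was at least 101-fold higher at 75 Gy and 2 weeks, or at least 15.1-fold without library 3134, and at least 18.1-fold higher at 6 weeks, and at least 13.1-fold and 21.0-fold higher at 65 Gy. Gzmc was called in 3 of the 4 comparisons, and its adjusted p was 0.0729 at 65 Gy and 2 weeks. Gzmd, Gzme and Gzmf, which lie in the same gene family, had at most 10 counts in any library and were not tested. The sequences of these granzymes are much alike, so reads could be given to either copy.

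Of the 17 granule and killing genes tested, 2 were called higher at 75 Gy and 2 weeks (5.67% of all genes). At 75 Gy and 6 weeks 5 were called higher (7.28%). At 65 Gy 1 was called at 2 weeks (3.47% of all genes) and 2 at 6 weeks (4.34%). At 75 Gy the first count was 4 without library 3126, 3132 or 3133, and the second was 2 without library 3142. Slamf7, an activating receptor of NK cells that macrophages and plasma cells also express, rose by 2.72 (SE 0.356, adjusted p = 0.000135) at 75 Gy and 2 weeks, or by 1.93 without library 3134, and by 2.23 (SE 0.350, adjusted p = 0.000288) at 6 weeks. Ctsc, the protease that activates granzymes and also works in myeloid cells, rose by 1.02 (adjusted p = 0.000255) at 75 Gy and 6 weeks, and Serpinb6b, a serpin that inhibits granzyme A, rose by 1.05 (adjusted p = 0.000477).

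Of 15 transcription factors of lymphocytes tested, edgeR called 0 at 2 weeks at either dose, with 5 at an unadjusted p under 0.05 in each and 0 called by DESeq2 or the exact test, although leaving out library 3128 or 3133 gave 2 calls at 75 Gy. At 75 Gy and 6 weeks Nfil3, a factor NK cells need to develop, was called higher by 1.36 (adjusted p = 0.0219) and Ikzf3 was called lower. Of all genes, 7.28% were called higher and 3.13% lower there. Ikzf3, which is most abundant in B cells and also made in T and NK cells, fell by 1.17 on the log2 scale (SE 0.213, adjusted p = 0.000801), from 81.0, 43.4 and 43.3 CPM in controls to 27.3, 25.5 and 21.7 CPM. The B cell markers had a summed level of 341 to 612 CPM in the 6-week controls and 203 to 278 CPM at 75 Gy, and their part was not tested. Id2, needed for NK and innate lymphoid cells and widely expressed, was higher by 0.78 (SE 0.0894, adjusted p = 2.84e-05), and Ets1 was lower by 0.78 on the same scale, both under the fold limit. Lef1, a factor of naive T cells, differed by -0.58 (adjusted p = 0.0172) at 75 Gy and 2 weeks.

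Genes of interferon-gamma induction and signalling had the most calls at 75 Gy and 2 weeks among the 4 comparisons with control. Of 19 inducing cytokines and receptors, 6 were called higher at 75 Gy and 2 weeks and 3 at 6 weeks, and at 65 Gy 2 and 1. The 75 Gy counts stand beside 5.67% and 7.28% of all genes called higher, and the 65 Gy counts beside 3.47% and 4.34%. Il12b, a subunit of interleukin 12 and interleukin 23 made by dendritic cells and macrophages, rose in all 4 comparisons, by 2.24 (adjusted p = 0.000152) at 75 Gy and 2 weeks and by 2.95 (adjusted p = 1.51e-05) at 6 weeks. Il2ra, the interleukin 2 receptor alpha chain, rose by 2.40 (adjusted p = 0.00108) and 1.81 (adjusted p = 0.0036), the first being 1.47 without library 3134. Of 12 signalling genes, 6 were called higher at 75 Gy and 2 weeks (5.67% of all genes). In the other 3 comparisons 0 were called, with 4, 2 and 3 at an unadjusted p under 0.05 and 0 by DESeq2 or the exact test. Socs1, an inhibitor of the pathway, rose by 1.87 (SE 0.424, adjusted p = 0.0056) and Irgm1, an interferon-induced GTPase, by 1.33 (SE 0.304, adjusted p = 0.00578). Il21r, the interleukin 21 receptor, rose by 1.45 (adjusted p = 0.00879) at 75 Gy and 2 weeks, but had 0.74, under the fold limit, without library 3134. Il7, a survival cytokine of lymphocytes, differed by 0.66 (adjusted p = 0.00564) and the kinase gene Jak1 by -0.33 (adjusted p = 0.00491) at 75 Gy and 6 weeks, and Ifngr2, a chain of the interferon-gamma receptor, by 0.70 (adjusted p = 0.000285) at 2 weeks. The 2-week counts at 75 Gy rested largely on library 3134. Socs1 had 20.0 CPM in it where the remaining 75 Gy libraries had 5.66 and 6.78 CPM. Without it the rise of Socs1 was 1.07 (adjusted p = 0.0323), Irgm1 had 0.75, under the fold limit, and 1 of the 12 signalling genes and 2 of the 19 inducing genes were called. Without control library 3126 or 3127, 3 of the 12 were called.

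The trafficking list had the most calls of the 8. Of 22 chemokines, chemokine receptors and adhesion genes, 14 were called higher (5.67% of all genes) and 2 lower (2.07%) at 75 Gy and 2 weeks. At 75 Gy and 6 weeks 12 were called higher (7.28%) and 2 lower (3.13%). Without library 3134 the 2-week total was 11. At 65 Gy 9 were called higher at 2 weeks (5 without library 3127 or 3129), where 3.47% of all genes were. At 65 Gy and 6 weeks 11 were called higher (4.34%) and 1 lower (0.943%). The list shares Ccr2 with the macrophage markers and Itgae with the dendritic cell markers. Its median log2 difference was 1.25 and 1.17 at 75 Gy, and 0.94 and 1.17 at 65 Gy. Cxcl9, a ligand of the receptor CXCR3 on activated T and NK cells, had 0.515 to 0.609 CPM in the 2-week controls, 15.5 to 49.96 CPM at 65 Gy and 25.6 to 115 CPM at 75 Gy. It rose by 6.63 (SE 0.717, adjusted p = 2.92e-05) at 75 Gy and 2 weeks, or by 5.61 without library 3134, and by 5.39 (SE 0.683, adjusted p = 6.05e-05) at 6 weeks. Cxcl10, another ligand of that receptor, rose by 5.11 (SE 0.550, adjusted p = 2.8e-05), or by 4.25 without library 3134, and later by 3.84 (SE 0.529, adjusted p = 0.000114).

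The chemokine rises were accompanied by other trafficking genes. Ccl2, which draws monocytes, rose by 4.66 (SE 0.463, adjusted p = 1.32e-05) at 75 Gy and 2 weeks, or by 4.17 without library 3134. Cxcr6, a receptor of tissue-resident T and NK cells, rose by 1.20 (SE 0.255, adjusted p = 0.00373), just under the fold limit without library 3134, and then by 2.19 (SE 0.263, adjusted p = 4.07e-05), from 3.73 to 4.14 CPM in the 6-week controls to 12.5 to 23.0 CPM at 75 Gy. Cx3cl1, a membrane-bound chemokine of endothelium and epithelium, fell by 1.14 on the log2 scale (SE 0.136, adjusted p = 3.78e-05) at 75 Gy and 6 weeks.

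Among 12 genes of gamma-delta T cells, type 17 cells and innate lymphoid cells, edgeR's quasi-likelihood test called 0 at 2 weeks, with 1 and 1 at an unadjusted p under 0.05 at 75 and 65 Gy. DESeq2 called 0, the exact test called 1 lower at 65 Gy, and leaving out control library 3128 or library 3132 gave 1 call at 75 Gy. At 6 weeks 4 were called higher (7.28% of all genes) and 1 lower (3.13%) at 75 Gy, and 1 higher (4.34%) at 65 Gy. Without library 3136, 3137, 3142 or 3143, 3 were called at 75 Gy. Il1rl1, the interleukin 33 receptor, which mast cells also express, rose by 1.71 (SE 0.274, adjusted p = 0.000334) at 75 Gy, and Tcrg-C1, a gamma chain constant region, by 1.12 (SE 0.297, adjusted p = 0.00906). Zbtb16, a factor of innate-like T cells that lung tissue also makes, fell by 1.60 (SE 0.458, adjusted p = 0.0138). Areg, an epidermal growth factor receptor ligand of several cell types, rose by 2.80 (SE 0.404, adjusted p = 0.000158) at 75 Gy and 6 weeks.

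Markers of other lymphoid and granulocyte sources were read beside these results. Of the thymocyte list 0 of 8 tested genes were called by edgeR in any comparison with control (at most 2 had an unadjusted p under 0.05). Psmb11, Rag2 and Ptcra had 10 counts or fewer in every library, while Rag1 reached 53 counts and Dntt 47. The list summed to 213 CPM in library 3134, the highest of all libraries, and to 152 and 159 CPM in the remaining 75 Gy libraries at 2 weeks. Of 6 lymph node stroma markers, 4 were called higher at 75 Gy and 6 weeks (Glycam1, Madcam1, Cxcl13 and Ccl19) and 3 at 65 Gy, with a median log2 difference of 1.41 and 1.24. At 2 weeks 1 was called higher at each dose and 1 lower at 75 Gy. Their summed level was 76.1 to 90.0 CPM in the 6-week controls, 61.9 to 73.2 CPM at 65 Gy and 61.3 to 64.3 CPM at 75 Gy, so the sum was lower where these genes were called higher. Cxcl13, a chemokine for B cells, rose by 1.67 (adjusted p = 0.000979) at 75 Gy and 6 weeks. The part of these cells in the rise of Cd4 and the T cell receptor genes was not tested. The 8 neutrophil markers summed to 452 to 794 CPM in the 6-week controls and 227 to 353 CPM at 75 Gy, and 4 of them were called lower. The 8 mast cell and basophil markers summed to 218 to 253 CPM in the 6-week controls and 108.003 to 115.072 CPM at 75 Gy, although 5 of them were called higher and 1 lower. Their part in the lower levels of Prf1, Gzma and Ncr1 was not tested. The 5 proliferation markers were called higher at 2 weeks at both doses, all 5 of them, and 4 were at 75 Gy and 6 weeks. Beside these marker counts, 7.28% of all genes were called higher and 3.13% lower at 75 Gy and 6 weeks, and 4.34% higher at 65 Gy. At 2 weeks 5.67% were called higher and 2.07% lower at 75 Gy, and 3.47% higher at 65 Gy.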

How the data were processed

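RNA of 17 mouse lung libraries was sequenced. The authors trimmed reads with Trimmomatic, aligned them with HISAT2 to GRCm38.p6 and assembled transcripts with StringTie. The deposited table holds raw read counts per gene, whole numbers that were not normalized, and how StringTie's output became counts is not given in the sources used here. Groups came from the sample titles. Genes were kept by filterByExpr (minimum count 10, minimum total count 15), scaled by TMM and fitted with edgeR 4.0.16 (R 4.3.3) by quasi-likelihood, with 1 coefficient for each of 6 groups and all libraries in the fit. p-values were adjusted by Benjamini-Hochberg over 22052 genes in each of 9 comparisons. Intervals are at the 95% level. The code was tested on simulated data. DESeq2 1.42.0, edgeR's exact test, other scalings and filters, and leaving out each library were alternatives. The members and the gene lists were chosen with earlier results of these data known. From each related list the text names mainly the 3 genes of smallest p at 75 Gy at each time, and Nfil3, S1pr5 and the granzyme genes beside Gzmc were named after their values were seen. Some genes that the rules would name are not reported here. Promoter windows and gene positions came from RefSeq, and exon lengths and overlapping genes from GENCODE M21. Depth of 46764569 to 66797879 counts leaves Ifng, at 8 to 92 counts, the least precise member. Intervals do not cover variation in dose delivery or tissue sampling.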

Additional observations from a re-analysis of the deposited data

Results flagged for a closer look

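The effect of 75 Gy on Areg, which encodes amphiregulin, was called different between the weeks. Its level was 12.7, 6.45 and 5.45 CPM in the 2-week controls and 6.34, 5.47 and 10.1 CPM at 75 Gy, with overlapping ranges and a log2 difference of -0.17 (SE 0.378, adjusted p = 0.795). At 6 weeks it was 3.68, 2.34 and 3.002 CPM in the controls and 12.5, 23.9 and 26.6 CPM at 75 Gy, a log2 difference of 2.80 (SE 0.404, adjusted p = 0.000158). Tested directly by edgeR's quasi-likelihood test, the 6-week effect exceeded the 2-week effect by 2.97 on the log2 scale (adjusted p = 0.0329). The call was close to the limit. It was kept in 9 of the 17 fits that left out a library, where the adjusted p ran from 0.0217 to 0.0944, and was lost without library 3126, 3130, 3133, 3135, 3136, 3137, 3142 or 3143. Without library 3126, the highest 2-week control, the difference was 2.504 (adjusted p = 0.0773). It was also lost with the groups compared alone (adjusted p = 0.0516), and DESeq2 called it (adjusted p = 1.63e-05). The cause was not tested.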

How the results depend on the processing

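Cd4 higher and Prf1 lower at 75 Gy and 6 weeks were called in all 17 fits that left out a library and in all 7 other alternatives that gave them a p, and Ncr1 kept an adjusted p of at most 0.05 in all 17. Cd4 at 65 Gy and 6 weeks was called in 13 of 17, and its call was lost without library 3136, 3137, 3138 or 3140. The number of members called, leaving out 1 library, ran from 0 to 2 at 75 Gy and 2 weeks (2 without library 3132), from 2 to 3 at 75 Gy and 6 weeks and from 0 to 1 at 65 Gy and 6 weeks. Without a fold limit it was 2, 4 and 2 in these comparisons, and edgeR's exact test gave 1 at 75 Gy and 2 weeks. Over all genes the calls at 75 Gy and 2 weeks numbered 1707, and 834 with the groups compared alone or 1097 without library 3134. At 65 Gy and 6 weeks they numbered 1164, and 604 without library 3138 or 743 without library 3140. Without a fold limit the calls over all genes were 4922, 2422, 7935 and 3234 in the comparisons with control. Members whose small, uncalled log2 difference changed sign when a library was left out are given next by their lowest and highest values. For 75 Gy at 2 weeks, Gzma -0.69 to 0.030, Klrb1c -0.58 to 0.081, Ncr1 -0.13 to 0.39, Gzmb -0.096 to 0.37, Cd8a -0.29 to 0.99 and Nkg7 -0.16 to 0.46. For 65 Gy at 2 weeks, Klrb1c -0.60 to 0.052, Nkg7 -0.16 to 0.32 and Gzmb -0.065 to 0.31. For 65 Gy at 6 weeks, Cd8a -0.24 to 0.27 and Nkg7 -0.35 to 0.0034. For 75 Gy against 65 Gy at 2 weeks, Klrb1c -0.050 to 0.094, Gzmb -0.20 to 0.23, Prf1 -0.056 to 0.088, Nkg7 -0.22 to 0.35, Gzma -0.11 to 0.43, Cd3e -0.12 to 0.58 and Cd8a -0.63 to 0.66. For 75 Gy against 65 Gy at 6 weeks, Cd4 -0.0097 to 0.25. For controls, 6 weeks against 2 weeks, Gzma -0.26 to 0.22, Prf1 -0.16 to 0.12, Klrb1c -0.24 to 0.41, Ncr1 -0.42 to 0.081, Nkg7 -0.13 to 0.29, Gzmb -0.082 to 0.28 and Cd3e -0.21 to 0.17. For 75 Gy effect, 6 weeks against 2 weeks, Klrb1c -0.59 to 0.057 and Cd3e -0.40 to 0.18. For 65 Gy effect, 6 weeks against 2 weeks, Gzma -0.16 to 0.31 and Ifng -0.057 to 0.69. No paired analysis was possible because every library number is unique and the groups share none. With 2 or 3 libraries a group, differences under the fold limit passed the adjusted p limit for some members and missed it for others. A member that missed it may still have changed, and the 2-week results at 75 Gy rest in part on library 3134. The cause of its difference was not tested.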
